A study of Mus musculus with 10 samples.

Results

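The genes described here are 10 genes of cytokinesis, the final step of cell division: Anln, Ect2, Racgap1, Prc1, Kif23, Kif20b, Cep55, Cit, Aspm and Iqgap3. They were chosen by name, as genes of the central spindle, the contractile ring and the midbody, and each was matched by its symbol to 1 of the 45232 gene entries measured. All 10 also stand on the list of up-regulated genes that the study drew from the same libraries, so their direction here is no independent evidence. RNA was sequenced from NIH3T3 cells, an immortalized mouse fibroblast line, after 60 h without serum, a treatment that drives fibroblasts into quiescence. All cells were Lin37-/-, from a clone with InDels in exon 4 or a clone with InDels in exon 6, each grown from a single cell, and carried a doxycycline-induced episome. The episome expressed luciferase in the KO cells and wild-type Lin37 in the rescue cells. The exon 4 clone gave 2 KO and 2 rescue libraries. The exon 6 clone gave 3 KO and 3 rescue libraries, in which the labels name the third of each as a technical replicate of replicate 2. The study names replicates 1 and 2 as biological replicates, and the sources used here do not say whether they were grown separately, so the p-values measure the spread between these samples only.

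When a cell divides, antiparallel microtubules are bundled into a central spindle midway between the separating chromosomes. Signals from this structure switch on the small GTPase RhoA at the cell surface, where an actomyosin ring forms and pulls the membrane inward. The ring ends as the midbody, a thin bridge that the ESCRT machinery cuts. In dividing cells many of the proteins made for these steps accumulate mainly from G2 to mitosis. In resting cells many such genes are bound by DREAM, a repressor built from E2F4, DP1, a p107 or p130 pocket protein and the MuvB core, to which Lin37 belongs. MuvB complexes reach promoters through LIN54, which binds a short DNA element named the cell cycle genes homology region (CHR).

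Levels are given in RPKM, reads scaled by the length of the gene and the size of the library, after division by a factor per library that aligns the libraries on 8523 well measured genes. The factors ranged from 0.601 to 2.70 in the KO libraries and from 0.324 to 1.73 in the rescue libraries, with the higher factor in the KO library of all 5 same-numbered pairs. The estimated depth was between 21900000 and 91200000 reads per library. Lin37 itself measured 0.274 to 0.417 RPKM in the 4 KO replicates and 2.12 to 4.92 RPKM in the 4 rescue replicates, and its groups did not overlap. The rescue reads can come from the episome, and an InDel need not remove a transcript. Exons of Lin37 also overlap those of Hspb6 on the opposite strand, and 13.8% of the 31-base stretches of its transcripts occur in another gene (Gm8802). The low KO level of Lin37 is therefore uncertain. The 8 fibroblast markers summed to 413 to 711 RPKM in KO and 491 to 792 RPKM in rescue replicates. By contrast, 4 endothelial markers summed to at most 0.399 RPKM, 4 muscle markers to at most 0.350 RPKM, 4 epithelial markers to at most 1.12 RPKM and 4 leukocyte markers to at most 1.56 RPKM. None of the 13 markers that could be tested differed between KO and rescue at an adjusted p under 0.05 with limma, and 1 did before adjustment (Pdgfra, named after its value was seen, log2 change -0.47). Of all 16866 genes tested, 1482 did before adjustment.

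The cytokinesis and midbody genes were low in the rescue cells and higher in the KO cells, in the group means of every member and in both clones. The mean KO level was 5.14 times (Racgap1) to 9.82 times (Cit) the mean rescue level, with a median of 7.42 times over the 10 genes. Within each gene, all 4 KO replicates lay above all 4 rescue replicates, after the technical replicates had been averaged. This held for 10 of 10 members and for 3.11% of the 16866 genes tested, which had to average 0.1 RPKM over all replicates. Cit, Kif23, Iqgap3, Prc1 and Aspm had rescue means under 0.1 RPKM. They were among the genes tested only through their KO levels, so their separation adds no support. The separation also held for all 10 members when the 10 libraries were taken singly, and for 9 of 10 in the RPKM as deposited, where the groups of Aspm overlapped. For these further counts the share of all genes was not computed. In the deposited RPKM the median over all genes was itself higher in KO (log2 change 0.64). In these bulk libraries, fewer cells with a transcript and less transcript per cell cannot be told apart.

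**Figure D1:**
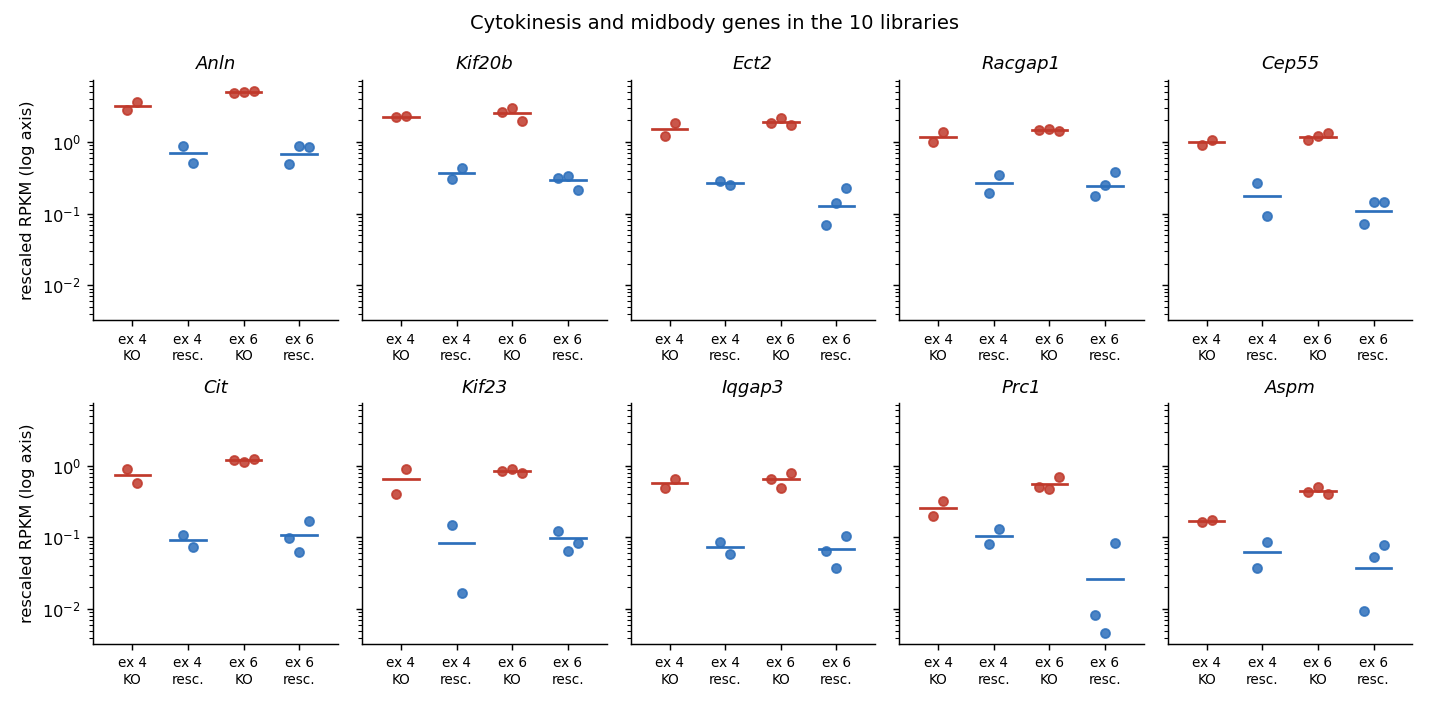
Rescaled RPKM (log axis) of each gene in the 10 libraries, with KO in red and rescue in blue. Points are libraries, and bars are group means after averaging the technical replicates of the exon 6 clone. In each of the 10 panels the red points lie above the blue points.

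The change was tested with limma on log2(RPKM + 0.5) over both clones, with clone as a covariate and Benjamini-Hochberg adjustment over all 16866 genes. Of the 10 members, 8 were called higher in KO at an adjusted p under 0.05 and none lower, against 1.61% of all genes tested. Prc1 and Aspm were not called. Genes had to average 0.1 RPKM over all replicates to be tested. Cit, Kif23, Iqgap3, Prc1 and Aspm, with rescue means of 0.0496 to 0.0991 RPKM, passed only through their KO levels, so their calls and ranks add no support. With no minimum level, 7 members were called (Kif23 lost its call), against 0.418% of 40885 genes. The median log2 change of the members was 1.27, and that of all genes tested was -0.03. The 4 pairs of a KO and a rescue replicate with the same number gave a median change of 1.28 ± 0.21 (SD, n = 4 pairs). Each gene was higher in KO in all 4 pairs, a count for which the share of all genes was not computed. Because the pseudocount of 0.5 is large beside the rescue levels, these log2 changes understate the ratios. The log2 change of a member ranked between 13 and 425 among the 16866 genes, and 8 of 10 ranked in the top 1%. In the RPKM as deposited, without the rescaling, all 10 were called, against 5.35% of all genes, with a median of 1.81 beside a shift of 0.64 over all genes.

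The promoters of the members were searched for letters of 3 elements on both strands. The windows ran from 250 bases before to 50 bases after a RefSeq start, on GRCm38.p6, and the first listed window was used for Ect2, Prc1 and Cep55, which have 2 each. The CHR letters searched were TTTGAA and TTCGAA, the second of which reads the same on both strands. They were found in 9 of 10 members, in each of these at least once within 50 bases of the start, and each time as TTTGAA. Among 27025 genes with a window, 19.4% held the letters anywhere in the window and 5.29% within 50 bases of the start, a distance chosen after the members' positions had been seen. The 100 bases around each start are printed here because the element lies in them. Capitals mark the CHR letters, which read TTCAAA where they lie on the strand opposite to the gene, and the start is base 51.
Anln: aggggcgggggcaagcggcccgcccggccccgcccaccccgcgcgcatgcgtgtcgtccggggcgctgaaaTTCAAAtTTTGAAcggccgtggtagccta
Kif20b: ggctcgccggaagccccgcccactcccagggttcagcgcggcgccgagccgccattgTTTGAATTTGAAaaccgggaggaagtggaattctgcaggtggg
Ect2: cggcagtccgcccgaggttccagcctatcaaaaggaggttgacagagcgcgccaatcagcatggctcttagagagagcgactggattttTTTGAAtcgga
Racgap1: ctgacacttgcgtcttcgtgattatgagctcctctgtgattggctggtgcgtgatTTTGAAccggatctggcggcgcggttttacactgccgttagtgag
Cep55: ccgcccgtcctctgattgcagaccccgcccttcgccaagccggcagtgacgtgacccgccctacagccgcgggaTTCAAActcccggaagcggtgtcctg
Cit: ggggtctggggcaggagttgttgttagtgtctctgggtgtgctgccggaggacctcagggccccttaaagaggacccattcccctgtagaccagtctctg
Kif23: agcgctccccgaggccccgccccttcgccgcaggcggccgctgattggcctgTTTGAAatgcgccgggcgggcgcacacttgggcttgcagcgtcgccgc
Iqgap3: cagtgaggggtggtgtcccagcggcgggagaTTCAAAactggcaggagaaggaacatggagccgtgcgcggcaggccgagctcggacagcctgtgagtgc
Prc1: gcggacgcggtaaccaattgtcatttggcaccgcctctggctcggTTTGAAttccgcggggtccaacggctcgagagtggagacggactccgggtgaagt
Aspm: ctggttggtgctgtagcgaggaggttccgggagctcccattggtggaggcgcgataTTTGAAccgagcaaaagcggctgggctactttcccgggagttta

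On the plus strand lie the stretches of Kif20b (chr19:34922308-34922407), Cep55 (chr19:38054934-38055033), Cit (chr5:115845606-115845705), Iqgap3 (chr3:88082001-88082100), Prc1 (chr7:80294401-80294500) and Aspm (chr1:139454723-139454822). On the minus strand lie those of Anln (chr9:22389157-22389256), Ect2 (chr3:27153829-27153928), Racgap1 (chr15:99651607-99651706) and Kif23 (chr9:61946750-61946849). Anln held the letters on both strands, from 22 to 27 and from 29 to 34 bases after the start, and Kif20b held them in tandem from 8 to 13 and from 14 to 19. Ect2 held a further copy from -114 to -109, outside the stretch shown. The letters of Iqgap3 lay from -19 to -14. Its RefSeq start lies 80 bases downstream of its start in GENCODE M21, so they lie inside the gene as GENCODE places it. The window of Cit, whose RefSeq start lies 378 bases downstream of the start of the gene in GENCODE M21, held none. The absence says only that these letters are not in this window.

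The CCAAT box, searched as CCAAT, was found in 5 of 10 members (Ect2, Racgap1, Prc1, Kif23 and Aspm) and in 37.9% of all windows. Within 50 bases of the start, it was found in the same 5 members and in 13.9% of genes. In those 5 a CCAAT stood upstream of the CHR letters, on the strand of Ect2 and Prc1 and on the opposite strand in the others, with 4 bases between them in Kif23, 12 in Racgap1, 13 in Aspm, 27 in Prc1 and 33 in Ect2. E2F letters, searched as TTCCCGC, together with TTGGCGC, together with TTCGCGC and, likewise, TTGCCGC, were found in Ect2 only, where they overlapped a CCAAT, and in 9.69% of all windows. Within 50 bases of the start, 3.91% of genes held the E2F letters. These matches describe letters and show no binding.

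**Figure D2:**
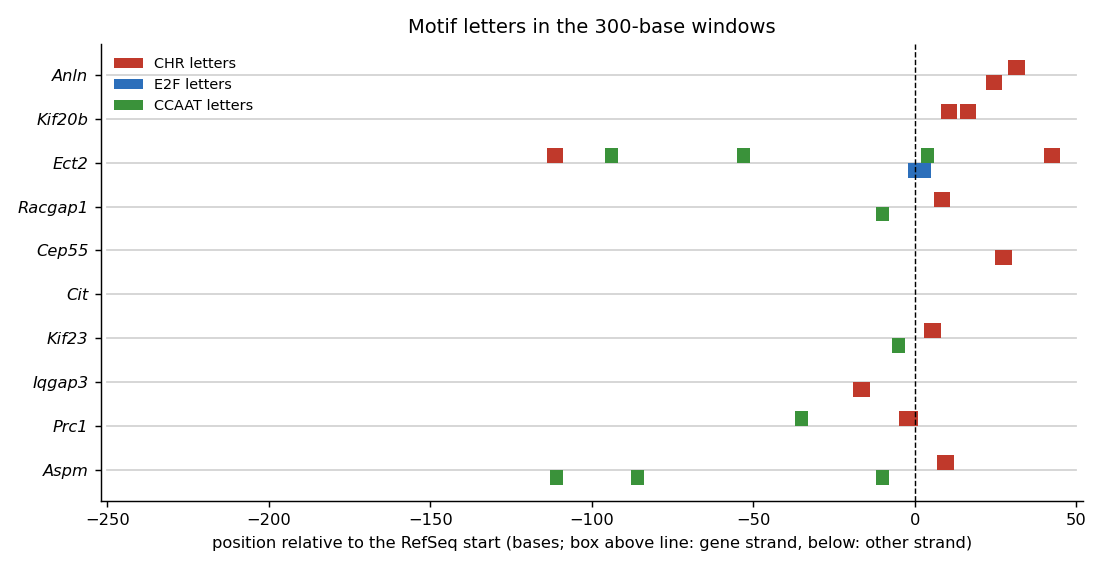
Positions of the CHR, E2F and CCAAT letters in the 300-base windows of the 10 genes, in bases from the RefSeq start (dashed line). Boxes above a line lie on the strand of the gene and boxes below on the other strand. Each of 9 genes has a CHR box within 50 bases of the start, Ect2 has a further one from -114 to -109, and the line of Cit carries no box.

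Among the regulators of the central spindle, Racgap1 and Kif23 together form centralspindlin, a complex of a GTPase-activating protein and a kinesin that crosses antiparallel microtubules. Racgap1 (ENSMUSG00000023015, chromosome 15, 99620496 to 99651656, minus strand) measured 0.992 and 1.37 RPKM in the exon 4 KO replicates, 1.47 RPKM in exon 6 KO replicate 1, and 1.53 and 1.45 RPKM in the runs of exon 6 KO replicate 2. In the rescue libraries, in the same order, Racgap1 measured 0.197, 0.347, 0.174, 0.249 and 0.385 RPKM. The lowest KO library was thus above the highest rescue library. The log2 change of Racgap1 was 1.27 (SE 0.13, adjusted p = 0.0012), and its KO mean was 5.14 times its rescue mean.

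Kif23 (ENSMUSG00000032254, chromosome 9, 61915905 to 61946774, minus strand) measured 0.408 and 0.904 RPKM in the exon 4 KO replicates, 0.846 RPKM in exon 6 KO replicate 1, and 0.901 and 0.785 RPKM in the runs of replicate 2. The rescue libraries gave Kif23 levels of 0.149, 0.0170, 0.123, 0.0645 and 0.0842 RPKM. Exon 4 KO replicate 1 stood apart from the other KO replicates on the low side, and still lay above every rescue library. The ratio of the means was 8.26 and the log2 change 1.07 (SE 0.15, adjusted p = 0.0083). Kif23 lost its call when exon 6 KO replicate 1 was left out (log2 change 1.04, adjusted p = 0.0519), when exon 6 KO replicate 2 was left out (1.05, adjusted p = 0.0527) and when no minimum level was set (1.07, adjusted p = 0.0676). The change itself stayed about as large, and its limma adjusted p ran from 4.0e-06 to 0.0676 over 19 alternatives. The lowest was that of the RPKM as deposited, where 5.35% of all genes were called higher.

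Ect2, the exchange factor that activates RhoA at the division plane, is recruited by centralspindlin. Ect2 (ENSMUSG00000027699, chromosome 3, 27097222 to 27153878, minus strand) measured 1.22 and 1.86 RPKM in the exon 4 KO replicates, 1.82 RPKM in exon 6 KO replicate 1, and 2.19 and 1.70 RPKM in the runs of replicate 2. Rescue levels of Ect2 were 0.284, 0.251, 0.0703, 0.141 and 0.228 RPKM. Exon 4 rescue cells were above exon 6 rescue cells in both replicates, and all were far below the KO cells. Ect2 showed a ratio of 8.67 and a log2 change of 1.66 (SE 0.15, adjusted p = 0.00078).

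Prc1, which crosslinks the antiparallel microtubules of the central spindle, was low in all groups. Prc1 (ENSMUSG00000038943, chromosome 7, 80294450 to 80316259, plus strand) measured 0.196 and 0.319 RPKM in the exon 4 KO replicates, 0.508 RPKM in exon 6 KO replicate 1, and 0.480 and 0.699 RPKM in the runs of replicate 2. The rescue libraries gave Prc1 levels of 0.0807, 0.131, 0.00829, 0.00466 and 0.0846 RPKM. The runs of exon 6 rescue replicate 2 were therefore far apart (0.00466 and 0.0846 RPKM). The log2 change of Prc1 over both clones was 0.66 (SE 0.16) and was not called (adjusted p = 0.110). Exons of Prc1 overlap those of Rccd1 on the opposite strand, 12.5% of the 31-base stretches of its transcripts occur in other genes, mostly Rccd1, and the strand of counting is not given in the sources used here. The level of Prc1 is uncertain for this reason.

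Anln encodes anillin, a scaffold that links actin, myosin, septins and RhoA in the contractile ring, and had the highest level of the 10 genes. Anln (ENSMUSG00000036777, chromosome 9, 22332012 to 22389188, minus strand) measured 2.84 and 3.60 RPKM in the exon 4 KO replicates, 4.79 RPKM in exon 6 KO replicate 1, and 4.92 and 5.21 RPKM in the runs of replicate 2. In rescue cells, Anln measured 0.893, 0.513, 0.493, 0.887 and 0.855 RPKM. The KO libraries of the exon 6 clone were all above those of the exon 4 clone, and the rescue libraries of the clones overlapped. Its log2 change of 1.93 (SE 0.18, adjusted p = 0.00078) was the largest of the 10 on this scale, which favours genes of a higher level. Its ratio of 5.88 was among the lowest, and with a pseudocount of 0.1 Ect2 (2.65) and Kif20b (2.56) changed more than Anln (2.40).

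Cit encodes citron kinase, a RhoA-binding kinase that keeps the midbody stable. Cit (ENSMUSG00000029516, chromosome 5, 115845278 to 116008947, plus strand) measured 0.913 and 0.583 RPKM in the exon 4 KO replicates, 1.22 RPKM in exon 6 KO replicate 1, and 1.12 and 1.23 RPKM in the runs of replicate 2. Rescue levels of Cit were 0.108, 0.0746, 0.0966, 0.0632 and 0.171 RPKM. The ratio of Cit was the highest of the 10 (9.82), and its log2 change was 1.27 (SE 0.13, adjusted p = 0.0012). The deposited value is a sum over all transcripts of the locus, so that the kinase and the shorter citron form without the kinase domain cannot be told apart.

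Kif20b and Cep55 act late, at the bridge between the daughter cells. Kif20b encodes a plus-end-directed kinesin of the midzone and midbody. Kif20b (ENSMUSG00000024795, chromosome 19, 34922361 to 34975745, plus strand) measured 2.20 and 2.32 RPKM in the exon 4 KO replicates, 2.67 RPKM in exon 6 KO replicate 1, and 3.02 and 1.96 RPKM in the runs of replicate 2. In rescue cells, Kif20b measured 0.301, 0.429, 0.319, 0.331 and 0.214 RPKM. After averaging, the 4 replicates of each group lay close together, although the runs of exon 6 KO replicate 2 did not (3.02 and 1.96 RPKM). Kif20b had the lowest adjusted p of the 10 genes (log2 change 1.82, SE 0.10, adjusted p = 8.5e-05). The ratio of its means was 7.33.

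Cep55 encodes the midbody protein that recruits the ESCRT machinery. Cep55 (ENSMUSG00000024989, chromosome 19, 38055011 to 38074423, plus strand) measured 0.903 and 1.08 RPKM in the exon 4 KO replicates, 1.06 RPKM in exon 6 KO replicate 1, and 1.21 and 1.33 RPKM in the runs of replicate 2. Rescue levels of Cep55 were 0.266, 0.0926, 0.0718, 0.144 and 0.144 RPKM. Exon 4 rescue replicate 1 was the highest of the rescue libraries and remained well under the lowest KO library. Cep55 showed a ratio of 7.52 and a log2 change of 1.30 (SE 0.13, adjusted p = 0.0010).

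Iqgap3 encodes an IQ-motif GTPase-binding scaffold of proliferating cells. Iqgap3 (ENSMUSG00000028068, chromosome 3, 88081971 to 88121048, plus strand) measured 0.488 and 0.657 RPKM in the exon 4 KO replicates, 0.643 RPKM in exon 6 KO replicate 1, and 0.493 and 0.791 RPKM in the runs of replicate 2. In rescue cells, Iqgap3 measured 0.0863, 0.0587, 0.0653, 0.0380 and 0.105 RPKM. After averaging of the runs its groups had a small spread, with 0.608 ± 0.080 RPKM in KO cells against 0.070 ± 0.012 RPKM in rescue cells (SD, n = 4 replicates each). The runs of replicate 2 of the exon 6 clone lay further apart, at 0.493 and 0.791 RPKM in KO and 0.0380 and 0.105 RPKM in rescue. Iqgap3 changed by a ratio of 8.62 and a log2 change of 0.95 (SE 0.10, adjusted p = 0.0013).

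Aspm, a microtubule minus-end protein of the spindle pole that is also found at the midbody, was the lowest of the 10 genes. Aspm (ENSMUSG00000033952, chromosome 1, 139454772 to 139494091, plus strand) measured 0.163 and 0.174 RPKM in the exon 4 KO replicates, 0.435 RPKM in exon 6 KO replicate 1, and 0.497 and 0.407 RPKM in the runs of replicate 2. The rescue libraries gave Aspm levels of 0.0375, 0.0857, 0.00939, 0.0526 and 0.0793 RPKM. The exon 4 KO replicates lay between the rescue libraries and the exon 6 KO libraries. The log2 change of Aspm was 0.53 (SE 0.14) and was not called (adjusted p = 0.157).

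Levels per length could be ordered among the members. In KO cells Anln (4.07 ± 1.04 RPKM, SD, n = 4 replicates) came first, followed by Kif20b (2.42 ± 0.20), Ect2 (1.71 ± 0.33), Racgap1 (1.33 ± 0.23), Cep55 (1.08 ± 0.15), Cit (0.972 ± 0.293), Kif23 (0.750 ± 0.230), Iqgap3 (0.608 ± 0.080), Prc1 (0.403 ± 0.179) and Aspm (0.306 ± 0.159). The ranges of Anln and Kif20b were clear of the next gene, and from Ect2 down every neighbour overlapped the next. In rescue cells Anln (0.693 ± 0.219 RPKM) was again first and clear of Kif20b (0.330 ± 0.069), and Aspm (0.050 ± 0.033) was last. All neighbours below Anln overlapped. Estimated from RPKM, gene length and depth, a member had 78.2 to 3309 reads in a KO library (median 407) and 1.08 to 375 reads in a rescue library (median 42.6). The lowest rescue levels thus rest on few reads, and the ratio of a gene such as Prc1 is imprecise.

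Each clone was then tested alone, with 2 replicates of each group. In the exon 6 clone the KO means of the members were 6.01 times (Racgap1) to 20.7 times (Prc1) their rescue means. There, 9 of 10 members were called higher with limma (all but Aspm, log2 change 0.81, adjusted p = 0.0612), against 1.24% of 15301 genes tested. In this clone Kif23, Iqgap3, Prc1 and Aspm had rescue means of 0.0265 to 0.0987 RPKM. They passed the minimum level only through their KO levels, so the calls among them add no support. With no minimum level, 0 members and 0% of 36276 genes were called. The median log2 change of the 10 members was 1.43, and that of all genes 0.00042. On the log2(RPKM + 0.5) scale Anln had the largest change (2.22, SE 0.18, adjusted p = 0.0118), at a ratio of 7.22, and Kif20b (1.95, SE 0.11) and Ect2 (1.93, SE 0.13) followed, both at an adjusted p of 0.0104. With the replicate number as a block, 7 members were called, against 0.928% of all genes, and Iqgap3 (adjusted p = 0.0563) and Prc1 (adjusted p = 0.0613) lost the call. Over 15 alternatives the adjusted p in this clone ran from 3.2e-08 to 0.340 for Iqgap3 and from 6.7e-08 to 0.381 for Prc1. Both lowest values came from the RPKM as deposited, without the rescaling. In that setting 61.4% of 16361 genes were called higher in this clone, so these values say little about the 2 genes. With a replicate left out, the lone sample of its group was assumed to vary like the other group. Without exon 6 KO replicate 1, exon 6 KO replicate 2 or exon 6 rescue replicate 1, 0 members and 0% of all genes were called, and without exon 6 rescue replicate 2, 5 members and 0.455% of all genes. The median log2 change of the members was 1.32 to 1.52 in these fits. The ratio of Prc1 rests on rescue values estimated at 1.08 to 33.7 reads.

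In the exon 4 clone the ratios of the means ran from 2.43 (Prc1) to 8.21 (Cit), and 10 of 10 members had a positive log2 change, with a median of 1.09 against -0.08 for all genes. None of the 10 was called in the clone alone, as none of its 18751 genes was called higher with limma (0%). Before adjustment, 8 of 10 members (all but Prc1 and Aspm) and 2.27% of all genes were higher at a p under 0.05. Among them, Cit, Kif23 and Iqgap3 had exon 4 rescue means of 0.0725 to 0.0911 RPKM. These genes passed the minimum level only through their KO levels, so their p-values add no support. The member with the lowest adjusted p was Kif20b (log2 change 1.68, SE 0.19, adjusted p = 0.215). When the contrast was taken from a single fit of all 4 groups, which share the estimate of the spread, 5 members were called in the exon 4 clone (Anln, Cep55, Cit, Ect2 and Kif20b), against 0.599% of 16866 genes. In that fit Kif20b reached a limma adjusted p of 0.0051 and Ect2 of 0.0289, and Iqgap3 (0.0508) and Racgap1 (0.0512) were just above the threshold. Over all alternatives the adjusted p of Kif20b in the exon 4 clone was lowest in this fit, and its highest was 0.9999.

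**Figure D3:**
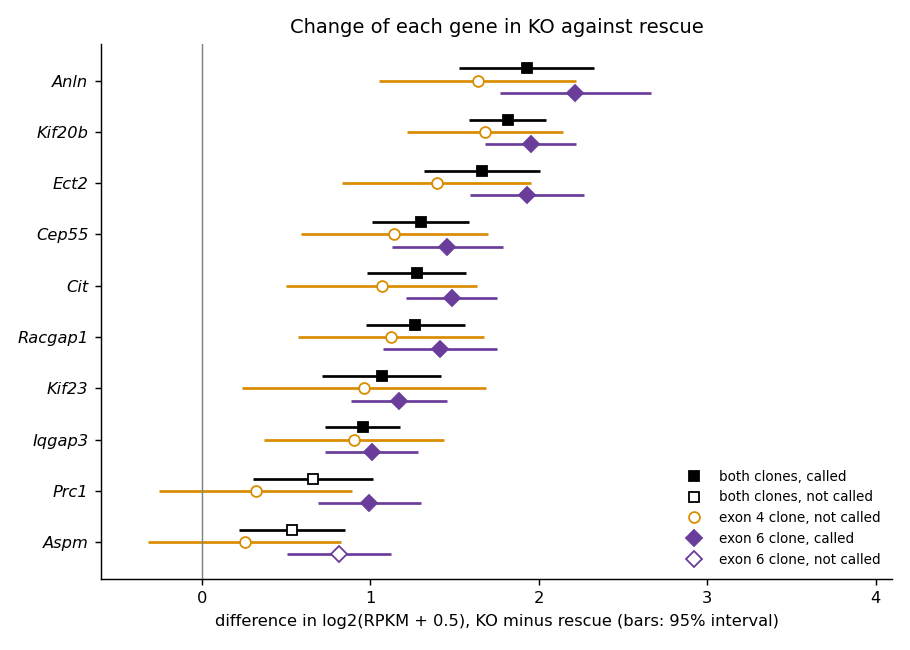
Difference in log2(RPKM + 0.5) between KO and rescue for each gene (x axis), over both clones and in each clone alone, with 95% intervals. Filled symbols are called at an adjusted p under 0.05. All 30 symbols lie to the right of 0, and the intervals of the exon 4 clone for Prc1 and Aspm cross it.

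All 10 members had a larger log2 change and a larger ratio in the exon 6 clone than in the exon 4 clone. The difference between the clones' changes, tested as the interaction of clone and genotype with limma, was 0.11 (Iqgap3) to 0.68 (Prc1) on the log2 scale, with a median of 0.37 against 0.06 over all genes. None of the 10 passed the adjusted threshold, and neither did any other gene (0%). Before adjustment, 2 of 10 members fell under a p of 0.05, against 4.06% of all genes: Prc1 (95% interval 0.16 to 1.19) and Aspm (0.07 to 1.05). The intervals of the others ran from -0.54 to 0.95 for Kif23, from -0.36 to 0.58 for Iqgap3 and from -0.06 to 1.14 for Ect2, so that equal changes in the clones and a larger change in the exon 6 clone are both within them. In KO cells alone, all 10 members had the higher mean in the exon 6 clone, and for 6 (Anln, Racgap1, Prc1, Kif20b, Cit and Aspm) both exon 6 replicates lay above both exon 4 replicates, as did 25.2% of all genes tested. Each clone is 1 cell line, and a difference between them cannot be told apart from a difference between the InDels. The rescue level of Lin37 differed as well, with a mean of 2.33 RPKM in the exon 4 clone and 4.84 RPKM in the exon 6 clone. Whether this bears on the members was not tested.

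Other genes of cytokinesis included lists in which every gene was called and lists in which none was. Of 54 such genes in 7 lists, 50 were tested over both clones with limma, 12 were called higher and 0 lower, at the same 1.61% of all genes. The lists were made with earlier results of these data known, and they are described by counts and medians only. All 5 genes of the chromosomal passenger complex and Polo kinase were called (median log2 change 1.37). Aurkb, the kinase of the complex, rose from 0.138 ± 0.079 to 1.21 ± 0.18 RPKM (log2 change 1.42, SE 0.13, adjusted p = 0.00068). Its activator Incenp rose from 1.38 ± 0.24 to 6.39 ± 0.64 RPKM (log2 change 1.88). The log2 change was 1.32 for Birc5 and 1.37 for Cdca8, which encode survivin and borealin and bring the complex to its sites, and 1.09 for Plk1, the kinase that triggers the recruitment of Ect2.

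The 4 further motors and partners of the central spindle were called as well (median log2 change 1.39). They were Kif20a (1.87), which carries the passenger complex to the midzone, Shcbp1 (1.66), which binds Racgap1, Kif4 (1.11), which limits the length of the midzone bundle with Prc1, and Kif14 (0.69), which binds Prc1 and citron kinase. Shcbp1, Kif4 and Kif14 had rescue means of 0.0832, 0.0929 and 0.0450 RPKM. These genes passed the minimum level only through their KO levels, so their calls add no support. Shcbp1 had a ratio of 16.5, from 0.0832 ± 0.0449 to 1.38 ± 0.42 RPKM (SD, n = 4 replicates each).

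Of 13 actomyosin and RhoA effector genes tested, 2 were called higher, the GTPase-activating protein gene Arhgap11a (log2 change 1.96, SE 0.11, adjusted p = 8.9e-05) and the formin gene Diaph3 (1.12, SE 0.10, adjusted p = 0.00056). The median of the list was -0.01. The 4 others with the highest levels, Actb (log2 change -0.18), Cfl1 (-0.02), Myh9 (-0.0026) and Actg1 (-0.01), were not called. Myh9, the heavy chain of nonmuscle myosin IIA, stood at 20.0 ± 3.6 RPKM in KO cells against 20.1 ± 3.4 RPKM in rescue cells. Rhoa, named here after its value was seen because Ect2 acts on it, stood at 3.19 ± 0.48 and 3.18 ± 0.16 RPKM, with a log2 change of -0.01 (95% interval -0.23 to 0.22). Myl9 was below the minimum level.

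None of the 8 septin genes and none of the 15 ESCRT genes of abscission that were tested was called, with median log2 changes of -0.04 and 0.02. Before adjustment, 0 septin genes and 1 ESCRT gene (Tsg101, named after its value was seen, log2 change -0.24) had a p under 0.05, against 1482 of all 16866 genes tested. The septins, filament proteins that anillin brings to the ring, ranged from -0.14 to 0.11, with Sept11, Sept7, Sept5 and Sept2 at the highest levels (log2 changes of -0.14, 0.11, -0.07 and 0.0027). The ESCRT genes ranged from -0.24 to 0.20. Chmp2a (0.12), Chmp4b (-0.07), Pdcd6ip (0.06) and Chmp5 (0.06) had the highest levels in that list. Pdcd6ip encodes ALIX, a partner of Cep55, and gave 5.08 ± 0.44 RPKM in KO cells against 4.85 ± 0.41 RPKM in rescue cells. Chmp4c was below the minimum level and Chmp1b was not analysed here.

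Iqgap1, the widely expressed paralogue of Iqgap3, stood at 4.93 ± 1.27 RPKM in KO cells against 4.85 ± 1.59 RPKM in rescue cells (log2 change 0.04, 95% interval -0.29 to 0.37, not called), and Iqgap2 was below the minimum level. Of 4 spindle pole partners of Aspm, Wdr62, which like Aspm is a microcephaly gene, was called (log2 change 1.34, SE 0.16, adjusted p = 0.0026). Cdk5rap2 was just outside the threshold (0.54, SE 0.11, adjusted p = 0.0548) and was called with the replicate block (adjusted p = 0.0399, in a range of 0.0099 to 0.228 over 20 alternatives). Numa1 (-0.01) and Katna1 (-0.15) were not called.

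**Figure D4:**
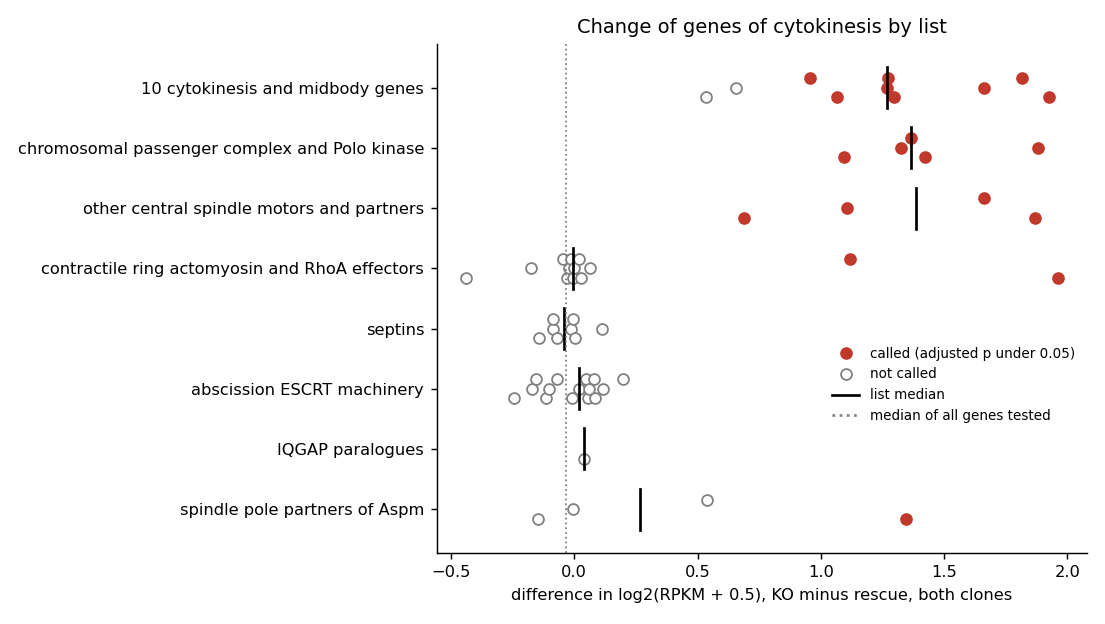
Difference in log2(RPKM + 0.5) between KO and rescue over both clones (x axis) for the 10 genes and the 7 other lists of cytokinesis genes. Points are genes, filled where called at an adjusted p under 0.05, black bars are list medians, and the dotted line is the median of all genes tested (-0.03). The upper 3 lists lie to the right, and the septin and ESCRT points lie between -0.24 and 0.20.

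Finally, the genes whose profile over the 8 replicates was most like the median profile of the members were sought among all genes tested. The likeness was the root mean square difference between centred log2(RPKM + 0.5) values. The 5 nearest genes were Cdca8 (0.120), the checkpoint kinase gene Bub1 (0.121), the nuclear pore gene Ndc1 (0.124), Aurkb (0.126) and the checkpoint kinase gene Ttk (0.127). Bub1 measured 1.03 ± 0.25 RPKM in KO cells against 0.0876 ± 0.0533 RPKM in rescue cells, and Ndc1 measured 3.23 ± 0.10 and 0.976 ± 0.234 RPKM (SD, n = 4 replicates each).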

How the data were processed

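RNA of 10 libraries was ribosome-depleted and made into libraries with the Ovation Human FFPE RNA-Seq kit. The authors clipped adapters with cutadapt, mapped the reads to mm10 with segemehl and used rnacounter with the GENCODE vM5 annotation to count reads in genes. RPKM values are what the authors deposited. The submitters' processing notes also name Picard 1.89. The authors tested with edgeR, which needs counts, so that test was not repeated. Only 20.5% to 27.8% of low values gave whole reads (tolerance 0.02), so the depth could only be estimated, and counting error is left out.

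From the deposited RPKM, names and positions were taken from GENCODE M21 (GRCm38), in which 44585 of 45232 entries were found. Libraries were scaled by the median of ratios to their geometric mean, taken over 8523 genes that averaged 1 RPKM or more and were above 0 throughout. The mean of technical replicates was used. Genes averaging 0.1 RPKM or more were tested on log2(RPKM + 0.5) with limma 3.58.1 (trend, R 4.3.3), with a clone term where both clones entered and with Benjamini-Hochberg adjustment. Python 3.11.15 was used elsewhere. The procedure was tested on simulated data, with changes placed only in genes averaging 1 RPKM or more. Most members average less, so that test does not cover genes of their level.

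The labels give KO and rescue replicates the same numbers, and the deviations of same-numbered samples correlated over genes (r = 0.477 in the exon 4 clone, 0.360 in the exon 6 clone), so every fit was repeated with a replicate block. The other alternatives were the pseudocount, the minimum level, the scaling, separate technical replicates, limma without trend, no clone covariate, a single fit of all 4 groups, and leaving out each replicate.

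The members and gene lists were chosen with earlier results of these data known. Named were all members, Lin37, called genes of each list with up to 4 others of the highest level, and the 5 genes most alike. Of the genes first listed, 1 is not reported here. Promoter windows came from RefSeq (GRCm38.p6), in which all 10 members were found.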

Additional observations from a re-analysis of the deposited data

Results flagged for a closer look

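A replicate far from the other 3 of its group was looked for in the KO and the rescue replicates of each member, 20 groups in all, of which chance flags about 1 in 20. It was found in 2. In KO cells, Kif23 measured 0.408 RPKM in exon 4 replicate 1, with a gap to the next replicate of 0.877 of the whole range. Iqgap3 measured 0.488 RPKM in the same replicate, with a gap of 0.911 of the range. The gap holds for averaged runs, and a single run of exon 6 KO replicate 2 measured 0.493 RPKM for Iqgap3. Both values lay above all rescue libraries. Without exon 4 KO replicate 1 the log2 change over both clones was 1.21 for Kif23 (limma adjusted p = 0.0026) and 1.01 for Iqgap3 (adjusted p = 0.0026). As before, 8 members were called, against 1.43% of all genes. The cause of the low values was not tested.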

How the results depend on the processing

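The log2 change of each member over both clones was positive under all 192 combinations of a member and an alternative. The call was lost in 3 of them, all of Kif23, and gained in 5, by Prc1 and Aspm. Over both clones 7 to 8 members were called when a replicate was left out, against 1.01% to 1.65% of all genes, and the median log2 change was 1.20 to 1.30. In the exon 6 clone alone, where this left a lone replicate in a group, the median log2 change was 1.32 to 1.52. A minimum of 1 RPKM left 2 members in the test over both clones and 3 in the exon 6 clone, all called, with a median of 1.87 over both clones. These passed the minimum only through their KO levels, so nothing is read from them. With no minimum level, 0 members and 0% of all 36276 genes were called in the exon 6 clone, at a median log2 change of the members of 1.43. The single fit of all 4 groups called 5 members in the exon 4 clone, against 0.599% of all genes. The median log2 change was 2.25 with a pseudocount of 0.1 and 0.85 with a pseudocount of 1, a shift that lies in the construction of the scale. In the RPKM as deposited it was 1.81, beside a median over all genes of 0.64, and 10 members and 5.35% of all genes were called higher. With technical replicates as separate libraries 10 members were called (2.18% of all genes), and with quantile normalization 9 (1.77%). With the replicate block, which uses the pairing of the numbers, 8 members were called over both clones (1.64% of all genes), 7 in the exon 6 clone (0.928%), 0 in the exon 4 clone and 0 for the difference between the clones, with a median of 1.27. Among members the block changed only the calls of Iqgap3 and Prc1 in the exon 6 clone. Among the other genes named, it gained Cdk5rap2 over both clones and lost Diaph3 in the exon 6 clone (adjusted p = 0.0613). With only the first or only the second technical run of the exon 6 clone, alternatives chosen after seeing the data, 8 members were called over both clones (1.47% and 1.48% of all genes), and 6 and 8 in the exon 6 clone (0.438% and 0.877%). Low read numbers limit the rescue levels of most members, less so of Anln (160 to 375 estimated reads), and 2 replicates per group limit each clone alone.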
